A study of Bos taurus with 48 samples.

Results

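Caruncular endometrium of pregnant cows was compared between animals that carried a large embryo and animals that carried a small one, on day 17 of the reproductive cycle. The members were 12 of the 44 samples of the series, on 13 of its 48 arrays, taken as every caruncular sample whose label gives an embryo size. Large meant longer than 20 cm and heavier than 75 mg, in 7 cows. Small meant shorter than 20 cm and lighter than 40 mg, in 5 cows. Cows are named as in the sample labels, for example Pregnant_926. The labels give a size class for each embryo and no measured length or weight.

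The study took caruncular and intercaruncular endometrium from 22 lactating dairy cows with synchronised cycles, of which 12 received a grade 1 embryo on day 7 and 10 remained cyclic. All 12 embryo recipients are in the comparison, and the 10 cyclic cows served as background. A fertility class is also given for each cow: 3 cows with a large embryo were fertile and 4 sub-fertile, and 3 cows with a small embryo were fertile and 2 sub-fertile. RNA from each sample, in the Cy5 channel, was hybridised against a Cy3 pool of all 44 samples with no dye swap, so each value is a log2 ratio to that pool and each difference is large minus small on the log2 scale.

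Caruncles are the gland-free, knob-like areas of the ruminant endometrium where the placenta later attaches, and the glands lie in the intercaruncular tissue between them. At this stage the conceptus is a growing filament that does not yet invade, and its outer cells secrete interferon tau, which prevents the return to oestrus and switches on interferon-stimulated genes in the endometrium. The comparison asks whether caruncular transcripts differ with the size that the conceptus has reached.

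The labels were checked against marker genes. The median of the uterine gland markers was lower in the caruncular than in the intercaruncular sample in 12 of 12 pregnant cows, by a median of -1.47, and that of the stromal markers was lower in 1 of 12. The median of the interferon-stimulated genes lay above that of every cyclic cow in 12 of 12 pregnant cows. Array quality was similar between the classes: the spots well above background made up a median of 72.2% on the 8 arrays of the large class (70.3% to 82.4%) and 71.2% on the 5 arrays of the small class (70.6% to 72.9%), and the sample signal was a median of 23.7 and 21.9 times the local background. Cow Pregnant_926 had 2 arrays, which were averaged; the difference between them had a standard deviation of 0.10 over probes.

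With a large embryo the caruncle had higher levels of the C1 complex of complement, of most interferon-stimulated genes and of single genes such as GPR34, and lower levels of endothelial markers and of single genes such as SEMA3E, FZD7 and PHGDH. C1S was higher by 1.36 ± 0.32 (SE, 7 and 5 cows), GPR34 by 0.81 ± 0.14, and FZD7 was lower, with a difference of -0.78 ± 0.15. None of these differences passed the test after correction. By limma with Benjamini-Hochberg adjustment, 0 of 14711 probes (0%) had an adjusted p under 0.05, and the smallest adjusted p was 0.376. At an unadjusted p under 0.05 there were 1033 probes (7.02%), of which 363 (2.47%) were higher and 670 (4.55%) lower with a large embryo; the t-test of the study's methods gave 852 in its Welch form and 945 with equal variances without the adjustment that the methods name, and 0 in both forms with it. The groups did not overlap at 42 probes (0.286%), with the large class above the small class at 14 (0.0952%) and below it at 28 (0.19%).

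The size of the differences sets what such a test can see. Over all probes the median size of the difference was 0.10 and the median standard error 0.14, so the 95% interval of a typical probe reached 0.31 to each side. That interval holds for 1 probe without adjustment, and a call after adjustment needed a larger difference against its standard error. A difference of at least 1.5-fold was estimated for 639 probes. The 30 probes with the smallest p comprised 12 that were higher and 18 that were lower with a large embryo, and at 17 of them the groups did not overlap, which the choice by p partly fixes.

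**Figure D1:**
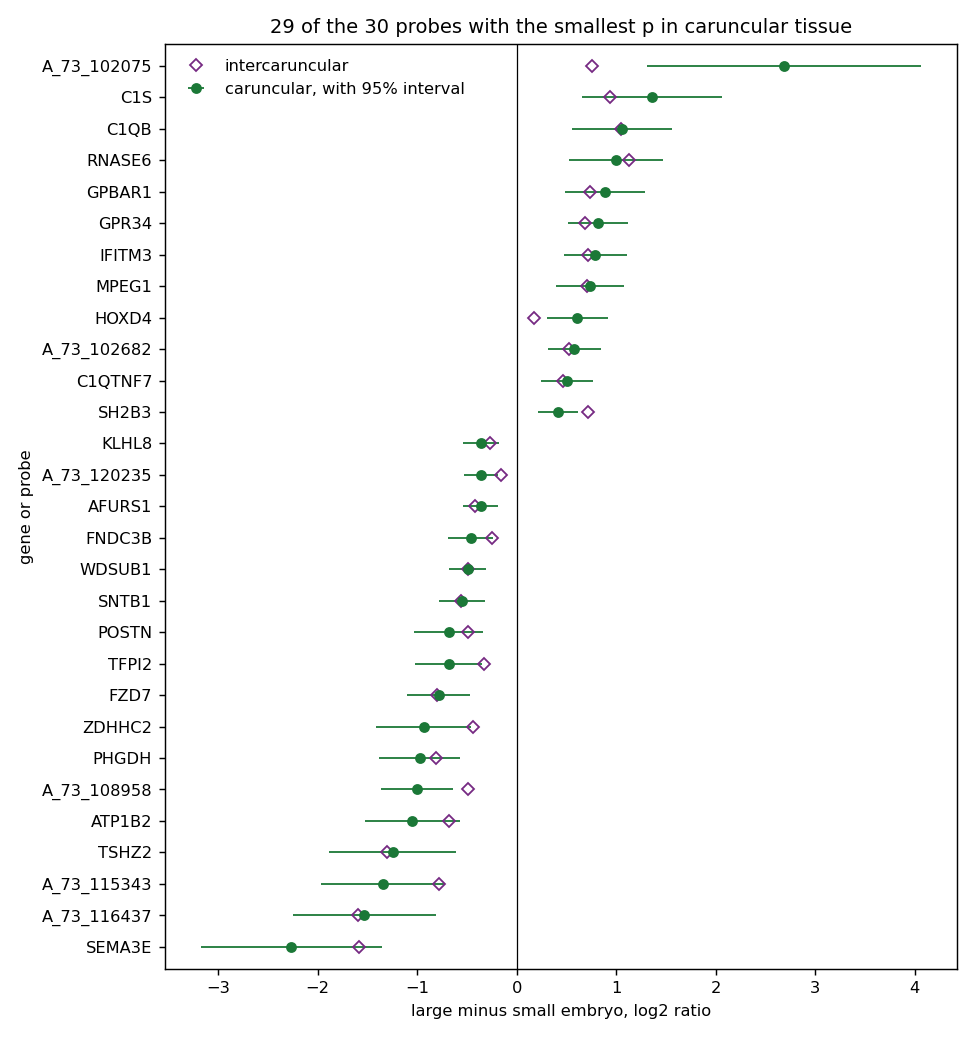
Difference between large and small embryo (log2 ratio, horizontal axis) for 29 of the 30 probes with the smallest p in caruncular tissue: filled circles with 95% intervals for caruncular and open diamonds for intercaruncular tissue of the same cows. The 2 tissues point the same way at each probe drawn, and the caruncular differences run from -2.26 at SEMA3E, which was well above background on 2 of the 8 arrays of the large class (-1.24 with another background correction), to 2.69 at A_73_102075, a probe without a gene name.

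GPR34, a lysophosphatidylserine receptor of macrophages and other phagocytes, had the second smallest p. Like GPBAR1, MPEG1 and RNASE6 below it was chosen by its p and is in none of the gene or marker lists. Its log2 ratio ran from 0.33 over a median of 0.91 to 1.06 in the large class, and was -0.33 in cow Pregnant_977, -0.11 in cow Pregnant_932, -0.0011 in cow Pregnant_3807, 0.064 in cow Pregnant_9246 and 0.31 in cow Pregnant_3956 of the small class. Cow Pregnant_926 was the lowest of the large class and still lay above cow Pregnant_3956, so the groups did not overlap. The difference was 0.81, or 1.76-fold (adjusted p 0.376), and cyclic cows averaged -0.61. With slide as a block, a fit that leaves out cow Pregnant_9790 because no caruncular sample of the other class shared its slide, the difference was 0.77, and within slides 5, 6 and 7 it was 0.36, 1.10 and 0.86.

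GPBAR1, the cell-surface receptor for bile acids that is also found on macrophages, ran from 0.70 over 1.23 to 1.63 in the large class. In the small class it was -0.23 in cow Pregnant_9246, 0.16 in cow Pregnant_3807, 0.37 in cow Pregnant_977, 0.46 in cow Pregnant_932 and 0.52 in cow Pregnant_3956. Every cow of the large class was above every cow of the small class, by 0.89 on average (1.85-fold, adjusted p 0.534; 0.99 with slide as a block). Cyclic cows averaged -0.22, below both classes.

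MPEG1 encodes a pore-forming protein with which macrophages kill bacteria. It was tightly grouped in the large class, from 1.04 over 1.25 to 1.51, and was -0.15 in cow Pregnant_9246, 0.45 in cow Pregnant_3807, 0.60 in cow Pregnant_932, 0.65 in cow Pregnant_3956 and 0.91 in cow Pregnant_977 of the small class. The groups did not overlap, and the difference was 0.73 or 1.66-fold (adjusted p 0.534). RNASE6, an antimicrobial ribonuclease of white blood cells, ran from -0.14 over 0.65 to 1.01 in the large class and was -0.91 in cow Pregnant_977, -0.55 in cow Pregnant_3807, -0.43 in cow Pregnant_932, -0.26 in cow Pregnant_9246 and -0.15 in cow Pregnant_3956 of the small class. The lowest cow of the large class, Pregnant_9790, barely exceeded cow Pregnant_3956, and the difference was 1.00 (2.00-fold, adjusted p 0.534; 1.12 with slide as a block).

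SH2B3, an adaptor that dampens cytokine signalling, was higher by 0.41 ± 0.09 with a large embryo and did not overlap between the groups (adjusted p 0.549); its other tested probe gave 0.16. HOXD4, a positional transcription factor, was higher by 0.61 ± 0.14 in 6 of 7 cows above every cow of the small class. C1QTNF7, a secreted relative of C1q, was higher by 0.51 ± 0.12, and on slide 5, where cow Pregnant_3956 carried the small embryo, its difference was -0.053. The unnamed probe A_73_102682 was higher by 0.58 ± 0.12 with no overlap, and the unnamed probe A_73_102075 by 2.69 ± 0.63, with the 5 cows of the small class spread from -3.22 in cow Pregnant_932 to 1.52 in cow Pregnant_9246; it was well above background on 4 of the 5 arrays of the small class.

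**Figure D2:**
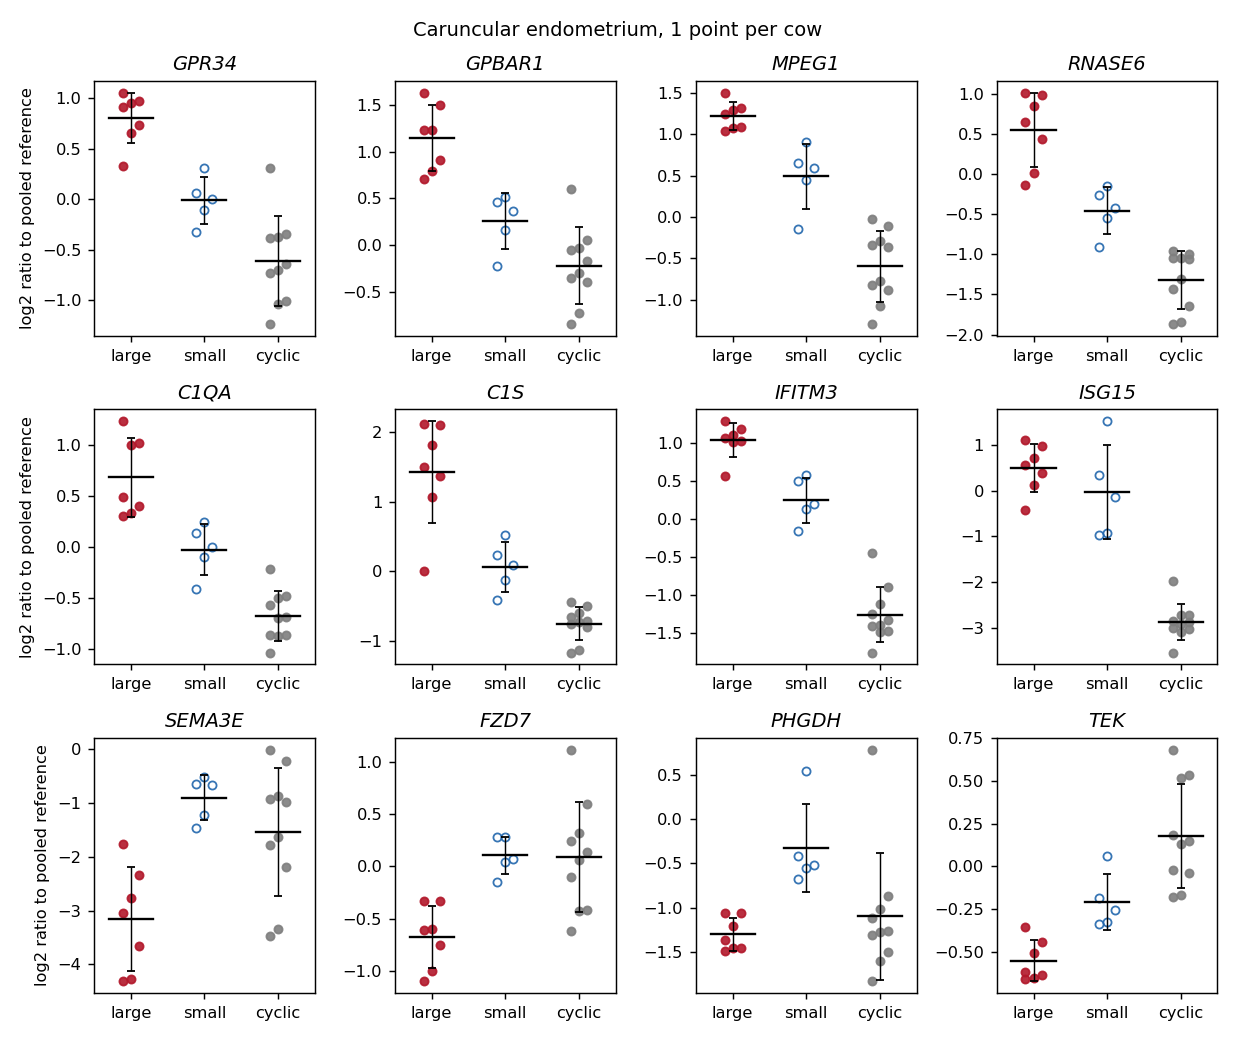
Log2 ratio to the pooled reference (vertical axis) of 12 named genes in caruncular tissue, 1 point per cow, for the large class (7 cows), the small class (5 cows) and cyclic cows (10 cows); bars mark the mean and 1 standard deviation. GPR34, GPBAR1, MPEG1, RNASE6 and C1QA separate the 2 classes upwards and SEMA3E, FZD7, PHGDH and TEK downwards, while C1S, IFITM3 and ISG15 overlap.

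Complement is a cascade of plasma proteins that C1, built from C1q, C1r and C1s, starts on antibody-coated or altered surfaces. Of 24 tested probes of complement genes, 14 were higher and 10 lower with a large embryo. 9 of the higher and 2 of the lower had an unadjusted p under 0.05, or 45.8% of the list against 7.02% of all probes, and 0 were called. The median difference of the list was 0.27, against -0.0033 over all probes. It rested on part of the list: the 6 probes of C1QA, C1QB, C1QC, C1R, C1S and C2 were all higher, with a median of 1.06, and the other 18 had a median of -0.029.

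C1S, the protease that cleaves C4 and C2, ran from 0.0039 over 1.49 to 2.11 in the large class. It was -0.41 in cow Pregnant_977, -0.13 in cow Pregnant_3807, 0.10 in cow Pregnant_9246, 0.23 in cow Pregnant_932 and 0.52 in cow Pregnant_3956 of the small class. The 6 cows other than Pregnant_9790 were above every cow of the small class, and cow Pregnant_9790 lay among them. The difference was 1.36 or 2.56-fold (adjusted p 0.549), 1.60 with slide as a block, and 1.24, 2.12 and 1.41 within slides 5, 6 and 7. Its partner C1R was higher by 1.12 ± 0.35, and C2, the next protease of the classical pathway, by 1.07 ± 0.36.

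C1QB, a chain of C1q, ran from 0.12 over 0.72 to 1.52 in the large class and was -0.70 in cow Pregnant_3807, -0.42 in cow Pregnant_977, -0.40 in cow Pregnant_3956, -0.084 in cow Pregnant_9246 and 0.20 in cow Pregnant_932 of the small class. Cow Pregnant_9790 was again the lowest of the large class and the cause of the overlap, since the other 6 exceeded every cow of the small class. The difference was 1.06 or 2.08-fold (adjusted p 0.534), and 1.41 with slide as a block. C1QA was higher by 0.71 ± 0.19 with no overlap, and C1QC by 0.87 ± 0.25. C3AR1, the receptor for the C3a fragment, was higher by 0.65 ± 0.16, with 6 of 7 cows above every cow of the small class. Of 8 probes of complement regulators 3 were higher and 5 lower, with a median of -0.095. Among them SERPING1, which blocks C1r and C1s, was higher by 0.61 ± 0.27, while CD59, which blocks the membrane attack complex, was lower, with a difference of -0.48 ± 0.21. C3 itself differed by 0.28 ± 0.29.

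Per cow, the median of the complement list ran from -0.0074 over 0.36 to 0.63 in the large class. It was -0.34 in cow Pregnant_977, -0.086 in cow Pregnant_9246, -0.064 in cow Pregnant_3807, 0.19 in cow Pregnant_932 and 0.22 in cow Pregnant_3956 of the small class, and -0.63 at the median of the cyclic cows. The groups overlapped through cows Pregnant_9790 and Pregnant_9921 on the one side and Pregnant_932 and Pregnant_3956 on the other. The list's median difference moved with the data used: it was 0.12 with slide as a block (without cow Pregnant_9790), 0.12 without cow Pregnant_9246, 0.47 without cow Pregnant_3956, and 0.011 when genes at background were kept. Within slides 5, 6 and 7 it was 0.24, 0.44 and 0.12.

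Macrophages make C1q, so their markers were read beside the complement genes, and the 3 C1q genes belong to both lists. Of 13 tested probes of macrophage and monocyte markers, 12 were higher with a large embryo and 1, CD68, was lower. 5 of the 12 had an unadjusted p under 0.05, or 38.5% of the list against 7.02% of all probes: C1QA, C1QB, C1QC, CSF1R and FCGR1A. The median difference was 0.30, 0.23 with slide as a block and 0.19 without cow Pregnant_9246, and within slides 5, 6 and 7 it was 0.38, 0.51 and 0.38. Without the C1q genes, 9 of 10 probes were higher, 2 of 10 had such a p and the median was 0.15. CSF1R, the growth factor receptor of macrophages, was higher by 0.48 ± 0.16, and FCGR1A, their high-affinity antibody receptor, by 0.94 ± 0.35. The widely used markers CD14, CD163 and TYROBP differed by 0.038, 0.0066 and 0.023.

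Summed over its 15 probes, the sample signal of the macrophage markers ran from 58900 over 72100 to 97900 units in the large class and from 37400 over 49100 to 69700 in the small class. The strongest signal was that of the C1QA probe in the small class (a median of 9640, and 16000 in the large class) and that of the C1QB probe in the large class (16200), and signals of different probes do not rank genes by level. MARCO was above background on 0 of the 13 arrays and ITGAM on 10. Per cow, the median log2 ratio of the list ran from 0.17 over 0.41 to 0.92 in the large class, and was -0.16 in cow Pregnant_9246, -0.15 in cow Pregnant_3956, 0.066 in cow Pregnant_3807, 0.11 in cow Pregnant_977 and 0.26 in cow Pregnant_932 of the small class. Cows Pregnant_9790 and Pregnant_926 of the large class lay at or below cow Pregnant_932, and the other 5 above it; cyclic cows had a median of -0.53. The part of macrophages in the difference of the complement genes was not tested, and in whole tissue more cells of a type and more RNA per cell cannot be told apart.

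**Figure D3:**
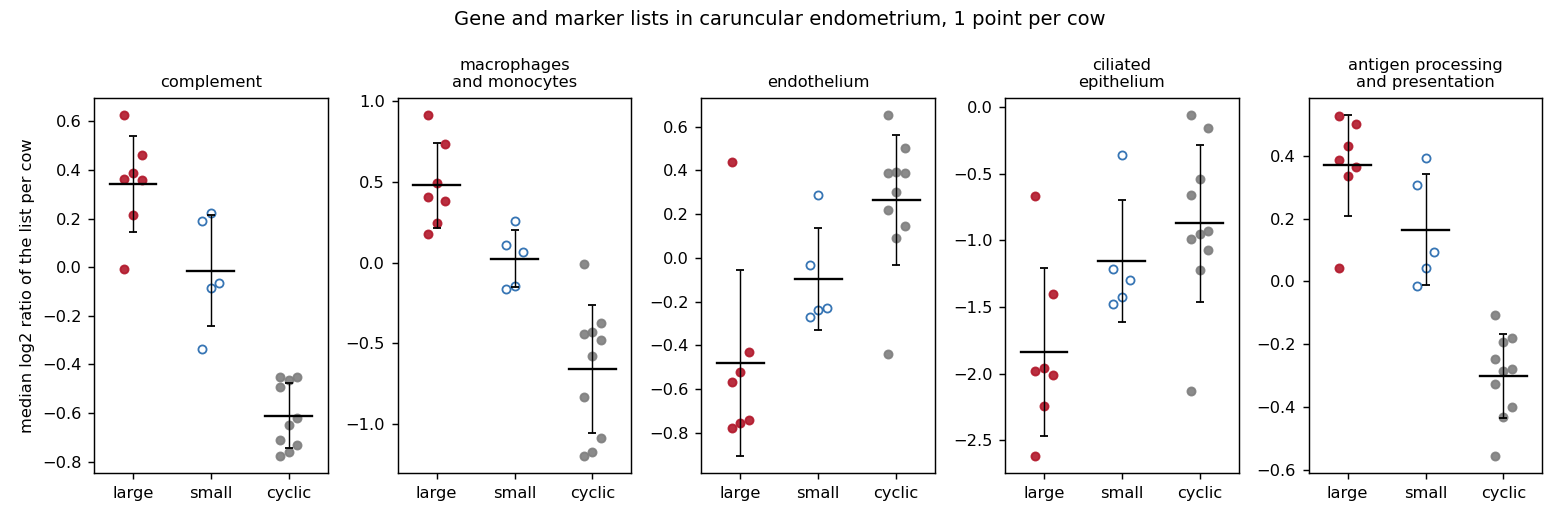
Median log2 ratio per cow (vertical axis) of 5 lists in caruncular tissue, for the large class, the small class and cyclic cows; bars mark the mean and 1 standard deviation. Complement runs from -0.0074 to 0.63 in the large class and from -0.34 to 0.22 in the small class, and cow Pregnant_9790 of the large class stands at 0.44 for endothelium, above the other 6 cows.

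The interferon-stimulated genes form the antiviral programme that type I interferons switch on through STAT proteins. 52 of the 54 genes of the list on the array were tested with 57 probes, of which 56 were higher with a large embryo and 1 lower; that of SAMHD1, which limits the nucleotides available to viruses, differed by -0.21. The median difference was 0.51, against -0.0033 over all probes. 9 probes had an unadjusted p under 0.05, each of them higher, or 15.8% of the list against 7.02% of all probes, and 0 were called. The median was 0.60 with slide as a block (without cow Pregnant_9790) and 0.67 with fertility class in the fit, and was 0.29 without cow Pregnant_3807, 0.29 without cow Pregnant_977 and 0.74 without cow Pregnant_932.

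Cow by cow, the median of this list ran from 0.17 over 1.01 to 1.33 in the large class. In the small class it was -0.41 in cow Pregnant_977, -0.29 in cow Pregnant_3807, 0.16 in cow Pregnant_9246, 1.04 in cow Pregnant_3956 and 1.18 in cow Pregnant_932. The groups overlapped widely: cows Pregnant_932 and Pregnant_3956 stood with the upper cows of the large class, and cows Pregnant_9790 at 0.17 and Pregnant_3803 at 0.36 of the large class stood near cow Pregnant_9246. Within slide 5 the median difference was -0.076, within slide 6 it was 0.61 and within slide 7 it was 1.10. Cyclic cows ran from -2.67 to -1.84, so that the distance between pregnant and cyclic caruncles was several times the distance between the size classes.

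Embryo size was also read within fertility class for the same list. Among fertile cows the list's median was 0.88 to 1.33 in the 3 with a large embryo and 0.16 to 1.18 in the 3 with a small one. Among sub-fertile cows it was 0.17 to 1.02 in the 4 with a large embryo and -0.41 and -0.29 in the 2 with a small one. The part of fertility class in the difference was not tested beyond its use as a covariate.

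IFITM3, a membrane protein that blocks viral entry, was the member with the smallest p. Its log2 ratio ran from 0.56 over 1.06 to 1.28 in the large class and was -0.17 in cow Pregnant_977, 0.12 in cow Pregnant_3807, 0.19 in cow Pregnant_932, 0.49 in cow Pregnant_9246 and 0.57 in cow Pregnant_3956 of the small class. Cow Pregnant_3803 fell just below cow Pregnant_3956, and the other 6 cows of the large class were above every cow of the small class. The difference was 0.79 or 1.73-fold (adjusted p 0.376), 0.74 with slide as a block, and 0.53, 0.93 and 0.75 within slides 5, 6 and 7. Its relatives IFITM1 and IFITM2 were higher by 0.95 ± 0.27 and 0.71 ± 0.24; these genes are close copies whose transcripts may reach each other's probes, and without them the median of the list was 0.50.

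ISG15, a ubiquitin-like protein, ran from -0.43 over 0.57 to 1.10 in the large class and was -0.97 in cow Pregnant_3807, -0.92 in cow Pregnant_977, -0.14 in cow Pregnant_9246, 0.34 in cow Pregnant_3956 and 1.52 in cow Pregnant_932 of the small class. Cow Pregnant_932 exceeded every cow of the large class, and the difference was 0.52 ± 0.41 (adjusted p 0.875). MX1 and MX2, dynamin-like antiviral GTPases, were higher by 0.51 ± 0.28 and 0.68 ± 0.29, and RSAD2, the antiviral enzyme viperin, by 0.51 ± 0.48. Single cows carried much of these differences: ISG15 was 0.29 without cow Pregnant_3807 and 0.91 without cow Pregnant_932, RSAD2 0.18 without cow Pregnant_3807 and 0.90 without cow Pregnant_932, and MX1 0.30 without cow Pregnant_977. The cyclic means of ISG15, MX1, MX2 and RSAD2 were -2.88, -2.24, -3.49 and -4.28. IFI16, a sensor of foreign DNA, was higher by 0.69 ± 0.24 and at its other tested probe by 0.63.

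**Figure D4:**
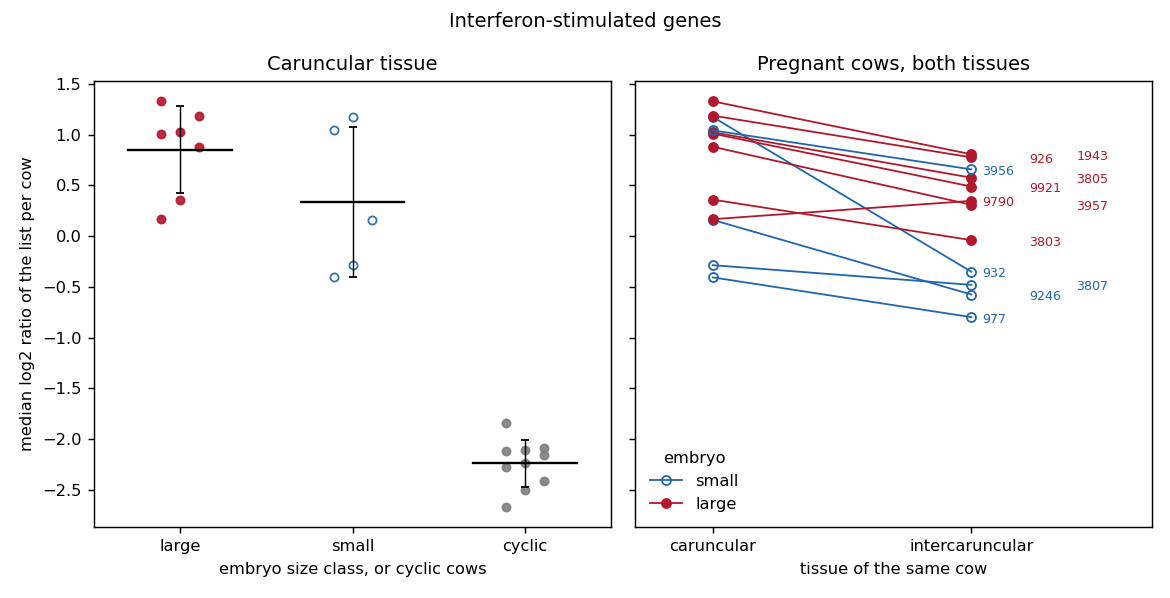
Median log2 ratio of the interferon-stimulated genes per cow (vertical axis): at the left the large class, the small class and cyclic cows in caruncular tissue with mean and 1 standard deviation, at the right the 2 tissues of each pregnant cow joined by a line. Cow Pregnant_932 of the small class stands at 1.18 in caruncular and at -0.35 in intercaruncular tissue.

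Antigen processing genes, which cut proteins and load the peptides on MHC molecules, were higher with a large embryo at 25 of 28 probes. 4 had an unadjusted p under 0.05, each higher (14.3%, against 7.02% of all probes), and the median difference was 0.21, or 0.24 with slide as a block and 0.083, 0.28 and 0.40 within slides 5, 6 and 7. BOLA-DRA, an MHC class II chain, was higher by 0.44 ± 0.12, with 6 of 7 cows of the large class above every cow of the small class. B2M, the light chain of MHC class I, was higher by 0.77 ± 0.29, BOLA-DOA by 0.56 ± 0.19 and CTSS, a protease that frees class II molecules for peptides, by 0.35 ± 0.12. Cow Pregnant_9790 was the lowest of the large class for each of these 4 genes.

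The interferon receptor and JAK-STAT list was divided, with 21 of 34 probes higher, a median of 0.036 and 1 probe, STAT5B, at an unadjusted p under 0.05 (2.94%, under the 7.02% of all probes). STAT5B, which relays cytokine and prolactin signals, was higher by 0.35 ± 0.11. The sign of the list's median turned without cow Pregnant_3807 and without cow Pregnant_9246 (-0.012 and -0.0041), and it was 0.074 without cow Pregnant_3956. Chemokines and their receptors had 18 of 30 probes higher, 0 at an unadjusted p under 0.05 and a median of 0.044, which was -0.018 when genes at background were kept and ran from -0.050 without cow Pregnant_3807 to 0.12 without cow Pregnant_3803. CCL26, an attractant of eosinophils, differed by -0.73 ± 0.35 (-0.48 without cow Pregnant_3807, -1.12 with slide as a block) and CXCL5, an attractant of neutrophils, by 0.93 ± 0.46.

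SEMA3E was among the genes that were lower with a large embryo. It encodes a guidance protein that repels growing vessels and axons through plexin D1. Its log2 ratio ran from -4.32 over -3.04 to -1.76 in the large class, and was -1.47 in cow Pregnant_932, -1.21 in cow Pregnant_977, -0.66 in cow Pregnant_9246, -0.65 in cow Pregnant_3807 and -0.52 in cow Pregnant_3956 of the small class. The groups did not overlap, and cyclic cows had a mean of -1.54 and a standard deviation of 1.19. The difference was -2.26, or 4.80-fold (adjusted p 0.376), -2.76 with slide as a block, and -1.86, -3.16 and -3.34 within slides 5, 6 and 7. SEMA3E was well above background on 2 of the 8 arrays of the large class and on 5 of 5 arrays of the small class, so the fold is imprecise; with another background correction the difference was -1.24.

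FZD7, a receptor for Wnt proteins, ran from -1.10 over -0.61 to -0.33 in the large class. It was -0.15 in cow Pregnant_3956, 0.044 in cow Pregnant_932, 0.073 in cow Pregnant_977, 0.28 in cow Pregnant_3807 and 0.28 in cow Pregnant_9246 of the small class. Every cow of the large class was below every cow of the small class, and the small class lay around the cyclic mean of 0.091. The difference was -0.78 or 1.72-fold (adjusted p 0.376), and -0.81 with slide as a block. This is 1 of 2 tested probes of the gene; the other gave -0.46 ± 0.15, and there the groups overlapped.

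PHGDH, the first enzyme of serine synthesis from glucose, ran from -1.50 over -1.37 to -1.06 in the large class and was -0.68 in cow Pregnant_3807, -0.55 in cow Pregnant_932, -0.52 in cow Pregnant_977, -0.42 in cow Pregnant_3956 and 0.54 in cow Pregnant_9246 of the small class. The groups did not overlap, but here the large class was near the cyclic mean of -1.10 and the small class was apart from it. The difference was -0.97 or 1.97-fold (adjusted p 0.376), and -0.76 without cow Pregnant_9246.

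WDSUB1, a ubiquitin ligase-like protein, SNTB1, a dystrophin-binding scaffold, FNDC3B, a membrane protein of the secretory pathway, and KLHL8, a ubiquitin ligase adaptor, were lower with no overlap, by differences of -0.49, -0.55, -0.46 and -0.36. TFPI2, an inhibitor of plasmin and other serine proteases that limits invasion in the placenta, differed by -0.68 ± 0.16 with no overlap. POSTN, a matrix protein of remodelling stroma, differed by -0.68 ± 0.16, with 6 of 7 cows of the large class below every cow of the small class. TSHZ2, a zinc finger repressor, differed by -1.25 ± 0.29, ZDHHC2, which attaches palmitate to proteins, by -0.94 ± 0.22 (-0.72 at its other tested probe) and ATP1B2, a subunit of the sodium pump, by -1.05 ± 0.22. TSHZ2 was well above background on 5 of the 8 arrays of the large class. AFURS1, as the array names it, differed by -0.36 ± 0.08.

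4 unnamed probes were also among the lower ones. A_73_108958 had the smallest p of all, with a difference of -1.0 ± 0.17 (adjusted p 0.376) and no overlap, and A_73_120235 differed by -0.36 ± 0.08 with no overlap. A_73_116437 differed by -1.53 ± 0.33. A_73_115343 differed by -1.34 ± 0.29, and by -0.80 with another background correction; it was well above background on 4 of the 8 arrays of the large class.

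Endothelial markers were lower with a large embryo at 8 of 8 probes, 3 of them at an unadjusted p under 0.05 (37.5%, against 7.02% of all probes). Their median difference was -0.30, -0.38 with slide as a block (without cow Pregnant_9790), and -0.38, -0.45 and -0.49 within slides 5, 6 and 7. TEK, the angiopoietin receptor that keeps vessels stable, ran from -0.66 over -0.62 to -0.35 in the large class and was -0.34 in cow Pregnant_977, -0.33 in cow Pregnant_3956, -0.26 in cow Pregnant_932, -0.18 in cow Pregnant_3807 and 0.063 in cow Pregnant_9246 of the small class. The groups met without overlap at cow Pregnant_9790 and cow Pregnant_977, and the difference was -0.34 ± 0.09 (adjusted p 0.559). TIE1, the partner receptor of TEK, differed by -0.58 ± 0.21, PECAM1, a junction protein of endothelial cells, by -0.76 ± 0.34 and VWF, which they release for clotting, by -0.54 ± 0.30. CLDN5 and EGFL7 differed by -0.032 and -0.0091.

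For the endothelial list, the median per cow was -0.78 to -0.43 in 6 cows of the large class and 0.44 in cow Pregnant_9790. In the small class it was -0.27 in cow Pregnant_3956, -0.24 in cow Pregnant_932, -0.23 in cow Pregnant_9246, -0.035 in cow Pregnant_977 and 0.29 in cow Pregnant_3807, and cyclic cows had a median of 0.35. The summed signal of the 8 markers ran from 28000 over 34000 to 82100 in the large class and from 31900 over 42200 to 45100 in the small class, with the strongest signal at the EGFL7 probe and every marker above background on all 13 arrays. In the median log2 ratio, though not in the summed signal, every cow of the large class apart from Pregnant_9790 was below every cow of the small class.

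Angiogenesis genes shared TEK and TIE1 with that list. Of 32 probes 21 were lower and 11 higher, 4 of the lower and 0 of the higher had an unadjusted p under 0.05 (12.5%, against 7.02% of all probes), and the median was -0.20, or -0.25 with slide as a block, -0.14 without cow Pregnant_3807 and -0.33 without cow Pregnant_9790. THBS1, a matrix protein that inhibits vessel growth, differed by -0.96 ± 0.33, and ECSCR, an endothelial receptor that guides cell migration, by -0.45 ± 0.19. Smooth muscle markers were lower at 6 of 8 probes, with a median of -0.38 that was -0.19 without cow Pregnant_3803 and -0.59 without cow Pregnant_9790; 1 probe, CNN1, had an unadjusted p under 0.05, at 0.0499 (12.5%, against 7.02% of all probes). The part of vessel or muscle content in these differences was not tested.

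Ciliated cell markers were lower with a large embryo at 6 of 6 probes, 3 of them, TEKT2, SPAG6 and RSPH1, at an unadjusted p under 0.05 (50%, against 7.02% of all probes). The 4 that were above background on all 13 arrays, SPAG6, RSPH1, TEKT2 and CAPS, differed by -1.18, -0.68, -0.44 and -0.40. DNAI1 was above background on 5 of 13 arrays and TEKT1 on 8, so the median over the 6, to which both belong, is imprecise. That median difference was -0.70, -0.81 with slide as a block, -0.45 with another background correction and -0.44 when genes at background were kept. Within slides 5, 6 and 7 it was -0.73, -1.58 and -0.046. Per cow the list ran from -2.62 over -1.98 to -0.67 in the large class, and was -1.48 in cow Pregnant_932, -1.43 in cow Pregnant_3956, -1.29 in cow Pregnant_977, -1.21 in cow Pregnant_3807 and -0.36 in cow Pregnant_9246 of the small class. Cows Pregnant_3803 and Pregnant_9790 of the large class overlapped the small class and the other 5 lay below it. The summed signal of the 9 probes was low, at 2170 to 6150 in the large class and 3090 to 5790 in the small class, CAPS gave most of it, and DNAI2 was above background on 0 of 13 arrays.

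Other epithelial lists leaned the same way in the caruncle without reaching an unadjusted p under 0.05 at any probe. Epithelial markers were lower at 8 of 9 probes with a median of -0.35, which was -0.59 with slide as a block, -0.19 without cow Pregnant_3805 and -0.22 without cow Pregnant_3807. Gland markers were lower at 3 of 4 probes with a median of -0.38, which was -0.43 with slide as a block, -0.62 without cow Pregnant_977, -0.23 without cow Pregnant_9246 and -0.18 when genes at background were kept. Within slides 5, 6 and 7 the epithelial median was -0.92, -0.89 and -0.28, and the gland median was -0.59, -0.90 and 0.26, so the latter turned sign on slide 7. The stromal markers, with the strongest signal at a DCN probe, had 5 of 10 probes higher and a median of -0.021, which was 0.13 without cow Pregnant_3803 and -0.16 without cow Pregnant_9790.

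Transporters of glucose, amino acids and ions, which feed the conceptus through uterine secretions, were lower at 32 of 47 probes. 5 had an unadjusted p under 0.05, each lower (10.6%, against 7.02% of all probes), with a median of -0.14 that was -0.071 without cow Pregnant_3956. SLC2A3, a high-affinity glucose carrier, differed by -0.69 ± 0.18 (-0.47 at its other tested probe), with 6 of 7 cows of the large class below every cow of the small class. SLC34A2, a phosphate carrier, differed by -1.13 ± 0.38 and SLC1A4, a carrier of serine and alanine, by -0.56 ± 0.22.

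In the list of steroid receptors, the oxytocin receptor and prostaglandin synthesis, 24 of 37 probes were lower, 3 of them at an unadjusted p under 0.05 (8.11%, near the 7.02% of all probes), and the median was -0.083, or -0.044 without cow Pregnant_926. ESR1, the oestrogen receptor alpha, ran from -0.62 over 0.0049 to 0.58 in the large class, and was 0.053 in cow Pregnant_3956, 0.65 in cow Pregnant_932, 0.75 in cow Pregnant_9246, 0.81 in cow Pregnant_3807 and 1.21 in cow Pregnant_977 of the small class. The cyclic mean was 1.25, and 4 of 7 cows of the large class were below every cow of the small class; the difference was -0.66 ± 0.23 (adjusted p 0.651). ESR2 and PLA2G10, a phospholipase that frees arachidonic acid, differed by -1.04 ± 0.39 and -1.13 ± 0.44, and by -0.67 and -0.72 without cow Pregnant_9246. OXTR, the oxytocin receptor through which luteolysis begins, averaged -2.02 in the large class, -2.42 in the small class and 0.78 in cyclic cows, with a difference of 0.41 ± 0.38 that was 0.12 without cow Pregnant_3956 and 0.73 without cow Pregnant_3807. PGR, the progesterone receptor, differed by 0.16 ± 0.20, or 0.020 without cow Pregnant_3807, 0.32 without cow Pregnant_3956 and 0.083 with slide as a block.

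Secreted histotroph and elongation genes were balanced, with 34 of 68 probes higher, 5 higher and 8 lower at an unadjusted p under 0.05 (19.1%, against 7.02% of all probes) and a median of 0.0013. That median turned sign with another background correction (-0.0013) and ran from -0.071 without cow Pregnant_3807 to 0.054 without cow Pregnant_3956. CRIPTO, a co-receptor for Nodal, differed by -1.55 ± 0.47, RBP4, the carrier of retinol, by -0.48 ± 0.15 and WNT11, a non-canonical Wnt protein, by -1.03 ± 0.39. WNT11 was well above background on 6 of 8 and 3 of 5 arrays. SPP1, the adhesion protein osteopontin, averaged 1.41 in the large class and 0.25 in the small class, with a difference of 1.16 ± 0.90 and a standard deviation of 1.56 and 1.91 within the classes; it was 0.32 without cow Pregnant_9246.

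Extracellular matrix genes were lower at 32 of 54 probes with a median of -0.052, which was 0.042 without cow Pregnant_3803 and -0.12 without cow Pregnant_3807, and 3 were higher and 1 lower at an unadjusted p under 0.05 (7.41%, near the 7.02% of all probes). COL18A1, a basement membrane collagen, was higher by 0.69 ± 0.18, PLAUR, the urokinase receptor, by 0.62 ± 0.23 and FMOD, a collagen-binding proteoglycan, by 0.67 ± 0.30, while POSTN was the lower one. Adhesion genes were lower at 31 of 42 probes with a median of -0.11, or -0.20 with slide as a block, -0.17 without cow Pregnant_3803 and -0.068 without cow Pregnant_3956, with 1 higher and 2 lower at an unadjusted p under 0.05 (7.14%, near that of all probes). Within slides 5, 6 and 7 it was -0.41, -0.11 and 0.034. TJP1, a tight junction scaffold, and SELP, which captures leukocytes on vessel walls, differed by -0.39 ± 0.12 (-0.24 at the other tested probe of TJP1) and -0.56 ± 0.23.

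Cell cycle genes were higher at 20 of 34 probes with a median of 0.015, whose sign turned with fertility class in the fit (-0.0091) and which ran from -0.043 without cow Pregnant_3956 to 0.093 without cow Pregnant_977. 3 were higher and 1 lower at an unadjusted p under 0.05 (11.8%, against 7.02% of all probes): AURKA, a mitotic kinase, was higher by 0.63 ± 0.16, CCNB2 by 0.78 ± 0.32 and CCND2 by 0.35 ± 0.16 (0.53 with slide as a block), and CCNB1 differed by -1.01 ± 0.46. Immediate early and heat shock genes were lower at 25 of 38 probes with a median of -0.11, which turned sign without cow Pregnant_932 (0.010), with 2 higher and 1 lower at an unadjusted p under 0.05 (7.89%, near the 7.02% of all probes). DDIT3, a stress-induced transcription factor, was higher by 0.33 ± 0.10 and FOSL2, a subunit of AP-1, by 0.73 ± 0.22, and MYC, which drives growth, differed by -0.33 ± 0.14, or -0.20 without cow Pregnant_3956 and -0.52 with slide as a block.

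**Figure D5:**
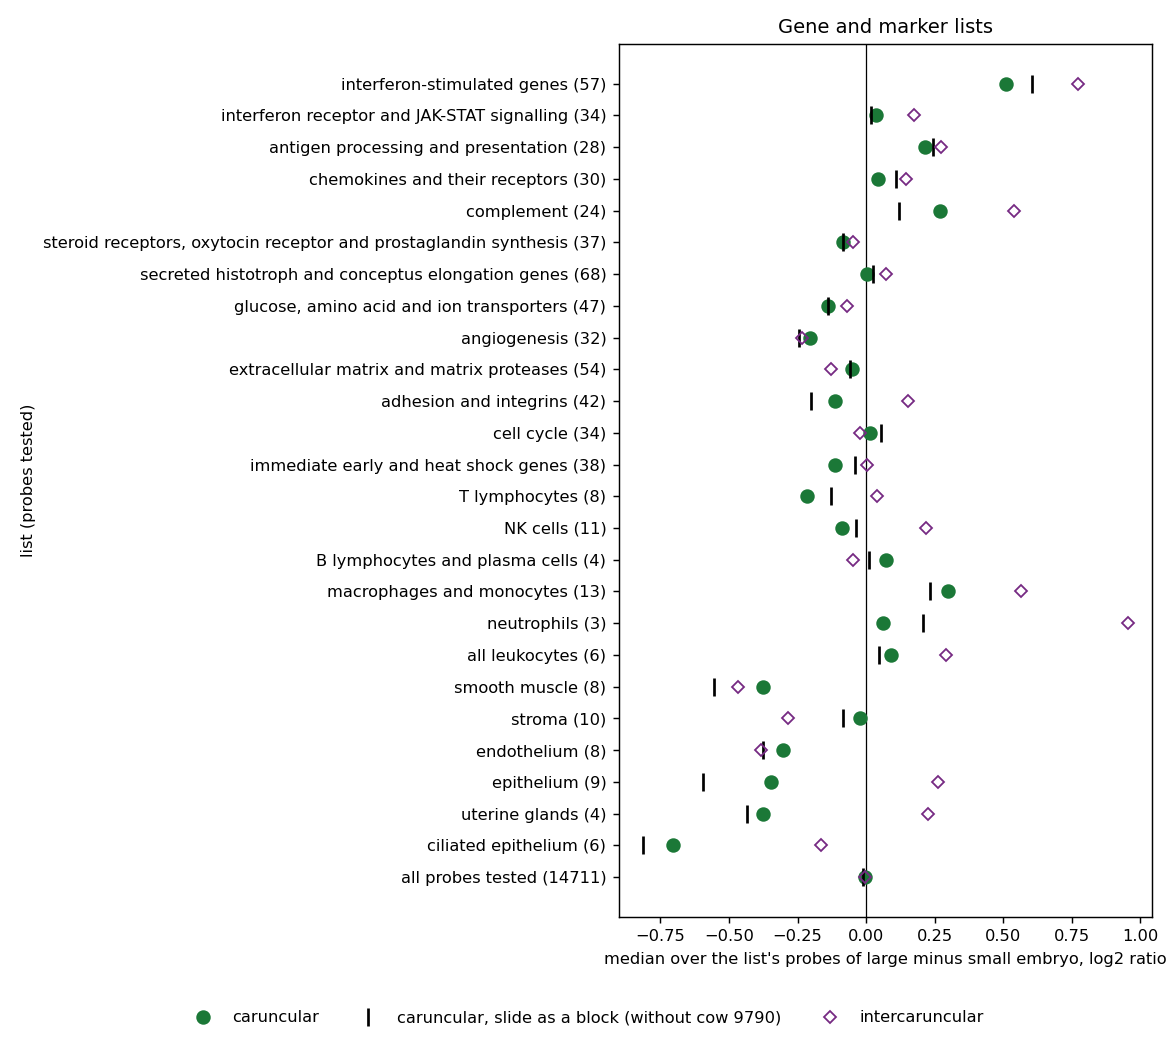
Median over the probes of each list of the difference between large and small embryo (log2 ratio, horizontal axis): filled circles for caruncular tissue, bars for caruncular tissue with slide as a block (without cow Pregnant_9790) and open diamonds for intercaruncular tissue. In caruncular tissue the interferon-stimulated genes stand at 0.51 and the endothelial markers at -0.30, with all probes at -0.0033; the value of the ciliated cell markers is imprecise, since 2 of their 6 probes were not above background on every array.

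Markers of other cells gave little separation. T lymphocyte markers were lower at 7 of 8 probes with a median of -0.22, which was -0.045 without cow Pregnant_977 and -0.35 without cow Pregnant_3956, and natural killer cell markers had 4 of 11 probes higher and a median of -0.086, whose sign turned without cow Pregnant_977 (0.10). Within slides 5, 6 and 7 the T lymphocyte median was 0.085, -0.38 and -0.065 and the natural killer cell median 0.48, -0.39 and -0.29. Neither list had a probe at an unadjusted p under 0.05. Of 4 B lymphocyte and plasma cell markers 3 were higher, with a median of 0.071 that was 0.012 with slide as a block and 0.14 without cow Pregnant_977. The lower one, JCHAIN, the joining chain of secreted antibodies, differed by -1.49 with an unadjusted limma p of 0.0268. It was the 1 probe of the 4 at such a p under 0.05 (25%, against 7.02% of all probes). General leukocyte markers were higher at 5 of 6 probes with a median of 0.090, or 0.015 without cow Pregnant_9246 and 0.21 without cow Pregnant_977. Of the 6, 1 had an unadjusted p under 0.05 (16.7%, against 7.02% of all probes): CD53, with a difference of 0.39. Neutrophil markers were higher at 3 of 3 probes with a median of 0.063, which ran from -0.10 without cow Pregnant_977 to 0.31 without cow Pregnant_9790. Red cell markers had 1 of 2 higher and a median of 0.0003, from -0.14 with slide as a block to 0.078 without cow Pregnant_1943.

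Little conceptus RNA was seen in either class. Of 24 probes for 21 trophoblast genes, 8 were above background on 0 of the 13 arrays and 21 on at most 2, and the probe of IFNT2, an interferon tau gene, was above background on 0. HAND1 and 1 of the 2 PAG1 probes were above background on all 13 arrays, and TKDP5 on 12. HAND1 and that PAG1 probe were the 2 tested. Their differences were -0.028 and -0.11, and the median of both, -0.070, was -0.024 without cow Pregnant_932. Per cow, the log2 ratio of these 2 probes had a median of 0.029 in the large class and 0.092 in the small class. In the cyclic cows, which received no embryo, it was 0.043, so signal at these probes was not particular to cows with an embryo. The summed signal of the list ran from 892 over 1070 to 1330 in the large class and from 825 over 954 to 1220 in the small class.

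The cows of a class did not form a tight group. Over all probes the correlation between cows, an across-probe description, had a median of 0.59 among cows of the large class (0.27 to 0.82), 0.44 among cows of the small class and 0.53 between the classes. On the first principal component, with 26.3% of the variance, cows Pregnant_3807, Pregnant_977 and Pregnant_9246 of the small class and cow Pregnant_9790 of the large class had positive scores, and the other 6 cows of the large class and cows Pregnant_3956 and Pregnant_932 of the small class had negative ones. Among the 13 arrays of this comparison, that of cow Pregnant_9790 shared its slide, of a later scan batch, only with the repeat array of cow Pregnant_926. Without cow Pregnant_9790, 1677 probes had an unadjusted p under 0.05, the smallest adjusted p was 0.0922 and 0 were called.

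Slides 5, 6 and 7 held cows of both classes in unequal number, 3 large and 1 small, 1 large and 3 small, and 2 large and 1 small. With slide as a fixed block the limma fit called 0 probes, with 1898 at an unadjusted p under 0.05 and a smallest adjusted p of 0.0713. Over the 29 other settings the smallest adjusted p ran from 0.0713 to 0.853, and 0 probes were called in each that adjusted for multiple tests.

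The intercaruncular samples of the same 12 cows show the same contrast in the glandular tissue, with the same animals and so not as an independent sample. There 536 of 14711 probes (3.64%) had an adjusted p under 0.05, 247 higher and 289 lower with a large embryo, and the groups did not overlap at 494 (3.36%). At these 536 probes the median size of the intercaruncular difference was 0.59, and in the same direction the caruncular difference had a median of 0.24. The choice of these probes by their intercaruncular values partly fixes that gap. Of them, 140 (26.1%, against 7.02% of all probes) had a caruncular unadjusted p under 0.05. A count in 1 tissue alone does not show that the tissues differ. The limma test of the difference between tissues called 0 of 14711 probes (0%), with 419 (2.85%) at an unadjusted p under 0.05 and a smallest adjusted p of 0.999. Among the 536 probes, 129 had such a p in that test, which their choice also partly fixes. With cow as a fixed block the test called 0 with 1237 (8.41%) at an unadjusted p under 0.05, and with cow as a random block 0 with 1317 (8.95%).

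The intercaruncular count of 536 depended on single cows, a check chosen after seeing the data. It was 33 without cow Pregnant_932, 50 without cow Pregnant_9246, 52 without cow Pregnant_3805, 64 without cow Pregnant_3807, 134 without cow Pregnant_1943, 196 without cow Pregnant_3957, 232 without cow Pregnant_3803, 293 without cow Pregnant_977, 319 without cow Pregnant_926 and 1884 without cow Pregnant_9790.

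Of the 30 caruncular probes with the smallest p, 30 had an intercaruncular difference of the same sign and 6 (20%) were called there. The shares were 68.7% and 3.64% of all 14711 probes, and 93.1% and 13.6% of the 1033 probes with a caruncular unadjusted p under 0.05. Both tissues come from the same cows. Beside the caruncular differences of -0.78 for FZD7, 0.89 for GPBAR1 and 1.00 for RNASE6, the intercaruncular ones were -0.80 (adjusted p 0.0415), 0.74 (0.0448) and 1.13 (0.0460). WDSUB1, AFURS1 and SH2B3 were the other 3, with -0.49 (0.0332), -0.41 (0.0239) and 0.72 (0.0320). TIE1, at -0.58 in the caruncle, was called with -0.88 (0.0131), and C3AR1, at 0.65, with 0.70 (0.0263).

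The interferon-stimulated genes had a median of 0.77 in intercaruncular tissue with 6 of 57 probes called, the complement list 0.54 with 1 of 24, the macrophage markers 0.57 with 0 of 13 and the endothelial markers -0.38 with 2 of 8 (3.64% of all probes were called), beside 0.51, 0.27, 0.30 and -0.30 in the caruncle. Epithelial and gland markers, at -0.35 and -0.38 in the caruncle, had medians of 0.26 and 0.23 between the caruncles. The test of the difference between tissues reached an unadjusted p under 0.05 at 0 of 9 and 0 of 4 probes of these lists when the pairing by cow was ignored, at 3 and 1 with cow as a fixed block and at 1 and 2 with cow as a random block, and called 0 in each; over all probes the shares at such a p were 2.85%, 8.41% and 8.95%. The ciliated cell markers had -0.17 there beside -0.70 in the caruncle, with 0, 0 and 1 of 6 probes at such a p and 0 called. In cow Pregnant_932 the interferon-stimulated genes stood at 1.18 in the caruncle and at -0.35 in the intercaruncular sample, the widest such gap of the 12 cows, and in cow Pregnant_9790 alone was the caruncle the lower of the 2 tissues.

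With 7 and 5 cows, differences near the typical standard error were not detectable, and neither were differences of several standard errors after adjustment. Even the -1.0 ± 0.17 of A_73_108958, with the smallest p of all, was not called (limma adjusted p 0.376). An unadjusted p does not separate a single gene from the many tested. Size class, fertility class and slide were unevenly crossed; slide and fertility class were each fitted beside size class, and not both together.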

How the data were processed

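Per the file headers, the authors scanned the arrays and ran Agilent Feature Extraction 9.5.3.1, which subtracted background, corrected the dyes with LOWESS and wrote a log10 ratio of Cy5 to Cy3 per spot. Per the file headers, the intensity of each channel is that background-subtracted and dye-corrected signal, in arbitrary units. The deposited value table holds log2 ratios and served as an alternative. Log10 ratios were converted to log2, outlier spots dropped, replicate spots averaged per probe (21475 probes) and each array centred on its median; cow Pregnant_926's 2 arrays were averaged. A probe was tested if 22 or more of the 44 samples had it well above background at 80 units or higher (14711; 11338 named genes). A cow was the replicate. Of the tested probes, 30 lacked a value in a cow.

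The classes were compared with limma 3.58.1 in R 4.3.3, with Benjamini-Hochberg adjustment over all tested probes and a threshold of 0.05; the text's unadjusted p are limma's. Tables and plots used Python 3.11.15, pandas 2.3.3, numpy 2.4.6 and matplotlib 3.10.9. Cow numbers pair the tissues. To check this, each value was taken as its deviation from the mean of its size class in its tissue. In 12 of 12 cows the caruncular deviations correlated best over probes with the same cow's intercaruncular ones (r 0.344 to 0.676), so the tissue difference was also fitted with cow as a block. Probe names came from the array annotation and RefSeq; 4512 probes had none, and 262 were named for 2 genes.

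Members, the 13 gene lists, the 14 marker lists and the naming rule were set with earlier results of these data known. Named were the 30 probes with the smallest p, since none was called, 2 to 4 members of each list by p, and OXTR, PGR, ESR1, ISG15, MX1, MX2, RSAD2 and SPP1, of which a few are left out of the text; further members are named where a count of 5 or fewer, a list's leading part or a marker list is described, chosen after their values were seen. Lists are described by counts and medians beside all probes, with no test. Alternatives were normexp background correction (offset 50) with loess, no centring, 3 other filters, a 1.5-fold threshold, the methods' t-test, slide or scan date as a block, each array of cow Pregnant_926 alone, the deposited table, 22 or 44 samples in 1 fit, fertility class as a covariate, and each cow left out; added after seeing the data were scan batch 2 alone, and the covariate and left-out cows for intercaruncular tissue. The search of promoters for a motif was not run, since no promoter sequences were at hand. The precision is limited by the number of arrays.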

Additional observations from a re-analysis of the deposited data

Results flagged for a closer look

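In each class of cows, the values of some of the named probes, the list medians and the array measures were searched for a cow whose gap to its nearest neighbour was large against the whole range (Dixon's test at 95%). Of 132 groups searched, 9 had such a cow, and chance gives about 1 in 20 groups. The count does not cover every named probe. For example, cow Pregnant_9790 also stood apart in the large class at TIE1 (0.25, with the next cow at -0.70) and at FOSL2 (-0.29, with the next at 0.59).

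IFITM3 was 0.56 in cow Pregnant_3803 of the large class, with the next cow at 1.01. PHGDH was 0.54 in cow Pregnant_9246 of the small class, with the next at -0.42. The unnamed probe A_73_115343 was -1.61 in cow Pregnant_9921 of the large class, with the next at -2.89. SPP1 was -1.84 in cow Pregnant_926 of the large class, with the next at 1.07, and -3.10 in cow Pregnant_9246 of the small class, with the next at 0.67.

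The antigen processing list had a median of 0.04 in cow Pregnant_9790 of the large class, with the next cow at 0.34. The endothelial markers had a median of 0.44 in cow Pregnant_9790, with the next at -0.43. The ciliated cell markers had a median of -0.36 in cow Pregnant_9246 of the small class, with the next at -1.21. The share of spots well above background was 82.45% in cow Pregnant_9790, with the next cow of the large class, Pregnant_926, at 73.29% as the mean of its 2 arrays.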

How the results depend on the processing

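The count of called probes in the caruncular comparison was 0 in each of the limma settings and with the adjusted t-tests; the methods' t-test in its Welch form gave 852 at an unadjusted p under 0.05, without the adjustment that the methods name. The tissue difference called 0 probes with cow as a block for the pairing, fixed or random, and without the filter. The intercaruncular count of 536 became 1097 with slide as a fixed block and 307 without the filter, and ran from 33 (without cow Pregnant_932) to 1884 (without cow Pregnant_9790) when a cow was left out, a setting chosen after seeing the data; the cause was not tested. The median of the complement list, 0.27, became 0.011 without the filter, which adds genes at background. Of the 76 named probes, 76 kept the sign of their difference in every setting that gave a value, which the choice of most of them by p partly fixes. With normexp background correction SEMA3E went from -2.26 to -1.24 and A_73_115343 from -1.34 to -0.80, both near background in the large class. Of the 13 gene lists 7, and of the 14 marker lists 10, kept the sign of their median in all 18 settings. The motif search was not run. Signal over background limits genes near 80 units: their ratios depend on the background correction, and a lower level there is imprecise.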
